A study of Homo sapiens with 6 samples.

Results

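The receptors *BMPR1A*, *BMPR1B* and *BMPR2*, the inhibitors of differentiation *ID1*, *ID2*, *ID3* and *ID4*, and the SMAD genes *SMAD6*, *SMAD7* and *SMAD9* were followed in PaTu8988t cells, an established human cell line of pancreatic ductal adenocarcinoma (PDAC). These 10 genes were taken by symbol, as receptors of the bone morphogenetic protein (BMP) pathway and as genes whose transcripts rise in many cells when the pathway is active, and all 10 are among the 20347 gene symbols of the table. RNA came from 3 replicates of control cells, made with the CRISPR/Cas9 plasmid and an unspecific guide RNA, and from 3 clonally independent *SAMD1* KO lines, made with the same plasmid and *SAMD1* guides and selected with puromycin. All cells grew in DMEM with serum, and the labels name no added ligand. Each *SAMD1* KO library is 1 clone, and the sources used here do not say whether the control replicates were separate clones or cultures, so p-values measure the spread between these libraries only.

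BMP ligands assemble a complex of type I and type II receptors, in which the type II kinase BMPR2 phosphorylates a type I receptor such as BMPR1A or BMPR1B. The type I receptor then phosphorylates SMAD1, SMAD5 or SMAD9, which bind SMAD4 and activate target genes. The *ID* genes are the classical targets; their proteins hold a helix-loop-helix domain without a DNA-binding region and keep E proteins such as TCF3 and TCF12 off DNA. *SMAD6* and *SMAD7* are targets too, and encode inhibitory SMADs that act back on the receptors. The comparison asks whether loss of SAMD1, a protein that binds CpG-rich promoters, goes along with other levels of these receptors and outputs.

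*SMAD9* and *BMPR1B* were called higher in *SAMD1* KO cells, and no member was called lower. *SMAD9* was 1.80-fold higher by the ratio of group means and *BMPR1B* was 2.92-fold higher. *ID3* and *SMAD7* lay above control in every clone without passing the cut-off, while *ID1*, *ID2*, *BMPR1A*, *BMPR2* and *SMAD6* overlapped between the groups and *ID4* had no reads. Calls use the cut-off of the study on a limma fit, an unadjusted p below 0.01 together with a log2 fold change larger than 0.5 in size, among the 12773 genes with a mean of at least 10 normalized counts. Of the 10 members, 8 were tested and 2 were called higher, where 5.77% of all tested genes were called higher, 2.08% were called lower and 7.85% were called either way. The log2 fold change was above 0 in 8 of the 8 tested members, and in 6227 of all 12773 tested genes. The median was 0.48 in the members against -0.0059 for all tested genes. *BMPR1A* and *ID2*, both near 0, changed sign in some fits without 1 library. Groups did not overlap and *SAMD1* KO was higher in 4 tested members, where 19.2% of all tested genes had that pattern and 37.8% had groups apart in either direction. An adjusted p below 0.05 was reached by 1 member, *SMAD9*, where 13% of all tested genes reached it and 8.32% did so with a higher level.

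Values are normalized counts, that is read counts divided by 1 size factor per library, and totals ran from 35589477 to 45172216 reads per library. *SAMD1* itself fell from 2304 ± 76.1 to 926.9 ± 136 normalized counts (SD of 3; log2 fold change -1.32, limma adjusted p = 0.000724), so transcripts from the edited gene were lower and still present in each clone. The epithelial markers *EPCAM*, *KRT8* and *KRT18* were well above the count minimum in all libraries, while the ductal keratin *KRT19* had 0 reads in all 6. *KRT7* and *KRT18* were called higher in *SAMD1* KO cells. Summed immune markers ran from 357 to 377 normalized counts in control and from 251 to 334 in *SAMD1* KO, nearly all from *CD68*, with *CD3E* at 0. Summed endothelial markers ran from 80.1 to 85.9 and from 35.6 to 85.4, and summed fibroblast markers from 56.7 to 58.4 and from 33.3 to 59.6, with *DCN* and *LUM* at 0. Within that last sum *PDGFRA* rose from 3.98 ± 0.572 to 17.9 ± 5.06 normalized counts (SD of 3; log2 fold change 1.90, limma adjusted p = 0.0139), while *COL1A1* went from 50.6 ± 1.91 to 26.2 ± 13.6 and was not called (limma adjusted p = 0.0980). The part of these markers in the results was not tested. Fewer cells with a transcript and less transcript per cell cannot be told apart in these libraries of whole cultures.

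Promoter sequences of 3 members are shown because they carry the main contrast, the members that were called and the best known BMP target, which was not. Each is the stretch of 250 bases before the RefSeq start of the gene on GRCh38.p14, 5′ to 3′ on the gene's strand, with GCGC in capitals, the motif that SAMD1 prefers. The *SMAD9* window (chr13:36920239-36920488, minus strand) lies inside the *SMAD9* gene as GENCODE 44 draws it, in an intron of a longer transcript. The *BMPR1B* window (chr4:94757705-94757954, plus strand) holds no GENCODE gene, and the *ID1* window (chr20:31605039-31605288, plus strand) shares 88 bases with an antisense lncRNA exon and its last 6 bases with the *ID1* exon.
SMAD9: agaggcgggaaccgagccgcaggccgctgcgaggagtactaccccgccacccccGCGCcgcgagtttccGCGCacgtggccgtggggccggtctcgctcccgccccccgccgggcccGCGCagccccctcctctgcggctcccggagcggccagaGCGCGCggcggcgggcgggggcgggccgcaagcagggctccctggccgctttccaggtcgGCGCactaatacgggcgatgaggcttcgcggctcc
BMPR1B: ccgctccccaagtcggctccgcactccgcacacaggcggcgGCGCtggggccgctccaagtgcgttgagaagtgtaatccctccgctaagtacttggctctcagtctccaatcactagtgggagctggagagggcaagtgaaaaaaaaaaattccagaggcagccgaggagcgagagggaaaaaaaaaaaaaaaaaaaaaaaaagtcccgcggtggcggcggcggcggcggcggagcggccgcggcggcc
ID1: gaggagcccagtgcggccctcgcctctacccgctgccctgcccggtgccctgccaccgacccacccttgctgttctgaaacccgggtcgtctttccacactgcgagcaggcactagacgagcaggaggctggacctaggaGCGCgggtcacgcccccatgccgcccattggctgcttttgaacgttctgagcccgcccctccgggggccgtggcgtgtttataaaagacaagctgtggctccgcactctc

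The *SMAD9* window held 6 matches of GCGC, overlapping matches included, and the windows of *BMPR1B* and *ID1* held 1 match each. RefSeq gives *BMPR1B* 3 starts, of which the first is shown, and the windows of the others held none. GCGC reads the same on both strands and was present in 53.4% of the 35116 promoter windows of that length, with 4 or more matches in 22.0%. Among the other members that were tested and not called, the windows of *BMPR2*, *ID2* and *ID3* held 6, 4 and 2 matches. The first window of *SMAD7* held 1 match, and its later windows and that of *BMPR1A* held none. The windows of *ID4* and *SMAD6*, which were not tested, held 8 and 4. The *SMAD9* window had 39 CpG dinucleotides, more than 97.3% of all windows, and the *BMPR1A* window had 9, more than 45.9%. The core of the SMAD binding element, GTCT or AGAC on either strand, was in 77.5% of windows. It occurred 1 time before *SMAD9*, 1 time before *BMPR1B* and 3 times before *ID1*. Matches are a description of these letters, and no binding data were analysed here.

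*BMPR1B* was the receptor with a call. It encodes a type I receptor and lies on chromosome 4 (94757955 to 95158448, GENCODE 44 on GRCh38). Control libraries 1 to 3 held 12.6, 15.7 and 19.5 normalized counts, and *SAMD1* KO clones 1 to 3 held 23.7, 50.1 and 65.7. Every clone was above every control, and clone 1 was close to the highest control. On the log2(normalized count + 1) scale this was a fold change of 1.40 (standard error 0.397, 95% interval 0.47 to 2.33), with limma unadjusted p = 0.0091 and adjusted p = 0.0611. That pseudocount of 1 makes the fold changes of low genes smaller. The call rests on few reads, 11 to 17 in control and 24 to 73 in *SAMD1* KO. Leaving out 1 library at a time, it was lost in 5 of 6 fits, those without control replicate 1, 2 or 3, clone 2 or clone 3 (log2 fold change 1.09 to 1.54, limma adjusted p 0.110 to 0.214), and was kept without clone 1 (1.81, limma adjusted p = 0.00896).

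*BMPR1A*, the other member that encodes a type I receptor, lies on chromosome 10 (86756596 to 86932825). Control libraries held 1098.1, 958.9 and 1115.7 normalized counts and the clones held 1040.2, 1137.8 and 1055.1. The groups overlapped, with a log2 fold change of 0.03 (SE 0.083, 95% interval -0.17 to 0.22, limma adjusted p = 0.846). An interval this narrow leaves out a log2 change of 0.5 either way. Pseudogenes of like name, *BMPR1AP1* and *BMPR1AP2*, can share reads with this gene.

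*BMPR2*, the type II receptor gene, lies on chromosome 2 (202376327 to 202567751). It held 5674.7, 5854.9 and 5965.6 normalized counts in control and 6793.2, 5951.7 and 6519.3 in the clones. Clone 2 fell within the control range and clones 1 and 3 were above it. The fit gave a log2 fold change of 0.14 (standard error 0.062, 95% interval -0.0086 to 0.28, limma adjusted p = 0.191). The median shift of about 40 neighbouring genes was 0.18, 0.05 and 0.13 on the log2 scale in clones 1 to 3, and the log2 fold change of *BMPR2* was 0.02 once these shifts were removed.

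Among the SMAD genes, *SMAD9* was the member with the smallest p. It encodes a receptor SMAD of the BMP branch, is itself raised by BMP in many cells, and lies on chromosome 13 (36844831 to 36920887). Control libraries held 186.4, 200.6 and 151.2 normalized counts and the clones held 290.7, 332.6 and 346.3. All 3 clones were above all controls, and the clones differed little among themselves. Group means were 179.4 ± 25.4 and 323.2 ± 29.0 (SD, n = 3), giving a difference of 0.85 on the log2 scale (standard error 0.142, 95% interval 0.52 to 1.18, limma adjusted p = 0.0103). Leaving out 1 library at a time, the call was kept in 6 of 6 fits, with log2 fold changes from 0.73 to 0.94. The sense intronic gene *SMAD9-IT1* overlaps *SMAD9* and has no entry of its own in the table.

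*SMAD7*, on chromosome 18 (48919853 to 48950965), encodes an inhibitory SMAD that answers to both BMP and TGF-beta. It held 154.4, 146.8 and 121.4 normalized counts in control and 377.7, 241.9 and 161.0 in clones 1 to 3. Clone 1 held the most, and clone 3 was just above the highest control. The change of 0.80 on the log2 scale (standard error 0.292, 95% interval 0.12 to 1.49, limma adjusted p = 0.118) did not pass the cut-off. Without clone 3 *SMAD7* passed it, at 1.10 (limma adjusted p = 0.0216), and without clone 1 the change was 0.49 (limma adjusted p = 0.144).

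*SMAD6*, the inhibitory SMAD gene that is the more specific to the BMP branch (chromosome 15, 66702236 to 66782849), stayed under the count minimum. Its control libraries held 2, 6 and 6 reads, or 2.3, 5.9 and 6.9 normalized counts. Clones 1 to 3 held 10, 24 and 6 reads, or 9.9, 20.7 and 5.4 normalized counts. Clone 3 lay within the control range, and a fit without the count minimum gave 1.03 on the log2 scale (standard error 0.538, limma adjusted p = 0.287).

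Of the *ID* genes, *ID1* (chromosome 20, 31605283 to 31606515) was the most abundant. It held 85.8, 94.9 and 98.5 normalized counts in control and 119.6, 130.5 and 72.9 in clones 1 to 3. Clones 1 and 2 were above the controls and clone 3 was below all of them. Its log2 fold change was 0.17 (standard error 0.234, 95% interval -0.38 to 0.72, limma adjusted p = 0.678), an interval that allows a change beyond the cut-off upwards.

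*ID2* (chromosome 2, 8678845 to 8684461) also spread to both sides of control. It held 44.6, 48.9 and 43.5 normalized counts in control and 33.6, 70.8 and 52.2 in the clones. Clone 1 was the lowest of all 6 libraries and clone 2 the highest. Its log2 fold change of 0.13 (standard error 0.282, 95% interval -0.53 to 0.79, limma adjusted p = 0.801) was well within the spread of the clones. *ID2-AS1* lies on the opposite strand. The kit marked strand, and the strand setting of the counting is not given in the sources used here.

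*ID3* (chromosome 1, 23557926 to 23559501) was low in every library. Control libraries held 7, 4 and 13 reads, or 8.0, 3.9 and 14.9 normalized counts, and the clones held 21, 23 and 19 reads, or 20.8, 19.9 and 17.1 normalized counts. The groups did not overlap, and the clones were closer to each other than the controls were. The fitted change was 1.18 on the log2 scale (standard error 0.451, 95% interval 0.12 to 2.24, limma adjusted p = 0.132). With a pseudocount of 10 it was 0.67 (limma adjusted p = 0.122), and without control replicate 2 it was 0.75 (limma adjusted p = 0.312). *ID3* passed the cut-off in the fit without control replicate 3 (1.60, limma adjusted p = 0.0971). *ID4* (chromosome 6, 19837370 to 19842197) had 0 reads in 6 of 6 libraries, where a count of 0 allows up to 3 reads, or 2.59 to 3.44 normalized counts. These limits cover counting error only.

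**Figure D1:**
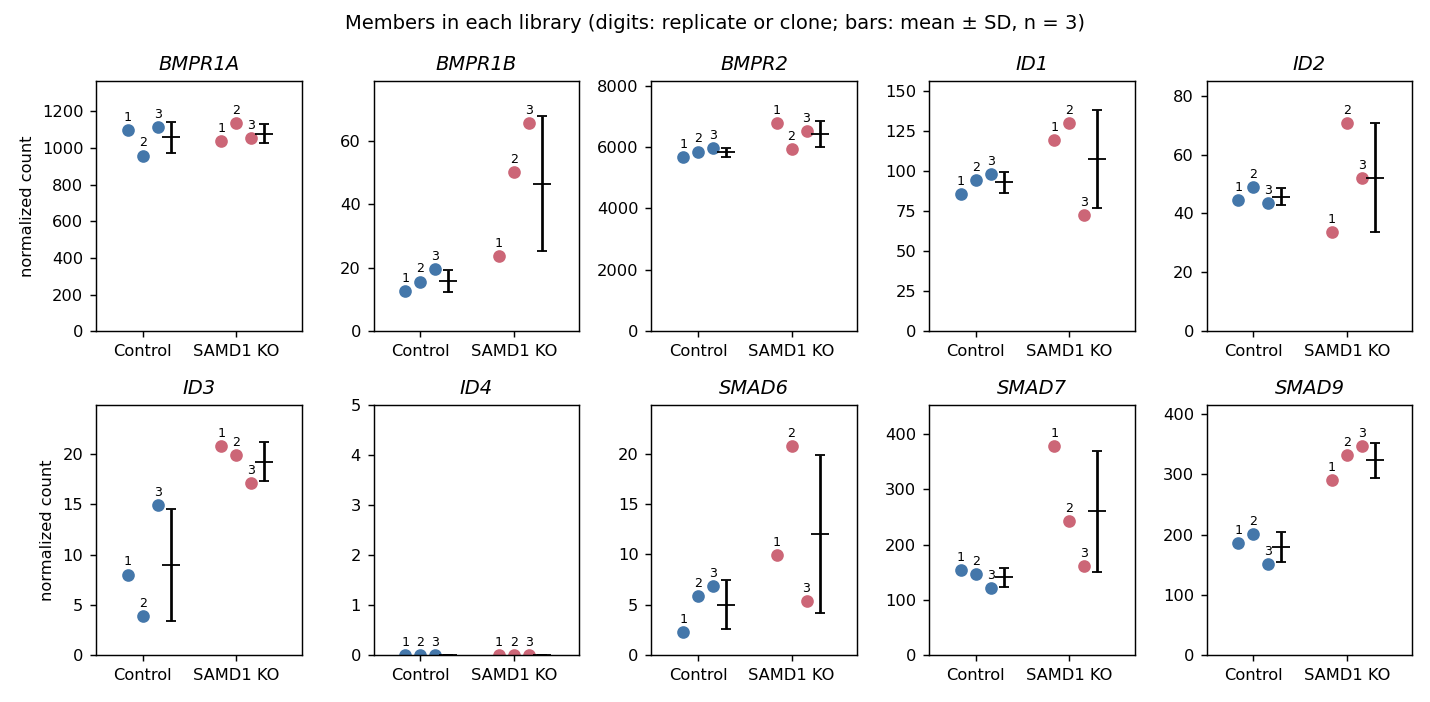
Normalized counts of the 10 members in each library, with a separate linear axis from 0 for each gene; points are libraries numbered by replicate or clone, and bars are the mean and SD of 3. *SMAD9*, *BMPR1B*, *SMAD7* and *ID3* have all clones above all controls, and *ID4* is at 0 throughout.

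Levels were compared between genes as normalized counts per kb of exon. In control cells *BMPR2* had the highest level per kb (466.5), followed by *BMPR1A* (105.0), *ID1* (75.5), *SMAD7* (35.7), *SMAD9* (30.1), *ID2* (20.6), *ID3* (5.97), *BMPR1B* (2.42) and *SMAD6* (0.586). The neighbours *SMAD7* and *SMAD9* overlapped over the 3 control libraries, as did *ID3* and *BMPR1B*. In *SAMD1* KO cells the order of the mean levels per kb was the same, and there *BMPR1A*, *ID1* and *SMAD7* each overlapped with the next gene in that order. As a share of the level per kb summed over *BMPR1A*, *BMPR1B*, *ACVR1* and *ACVRL1*, the type I receptors of the BMP branch, *BMPR1B* held 0.901% to 1.39% in control and 1.60% to 4.01% in *SAMD1* KO. *BMPR1A* held 49.7% to 51.8% in control and 42.0% to 49.2% in *SAMD1* KO, and *ACVR1* held 46.8% to 49.0% and 47.5% to 54.0%. The called receptor was the least abundant of the 3 that had more than a few reads.

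**Figure D2:**
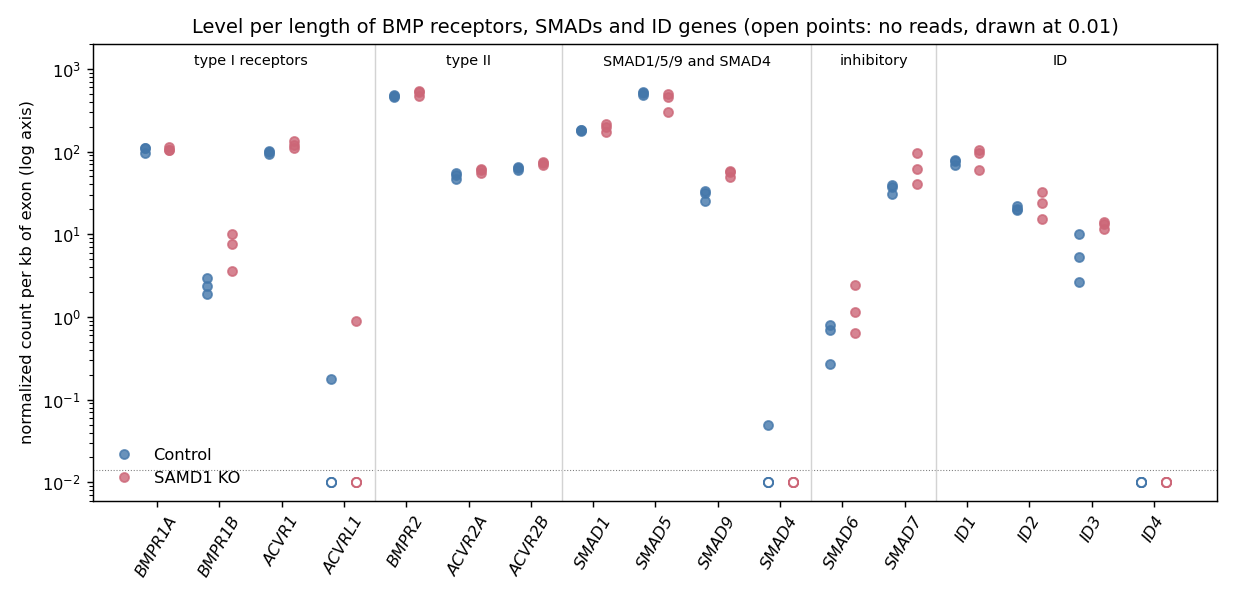
Normalized counts per kb of exon (log axis) in each control and *SAMD1* KO library for type I and type II receptors, SMADs and *ID* genes; filled points are libraries and open points at the bottom are libraries with no reads. *BMPR2* is the highest member, *BMPR1B* lies far below *BMPR1A* and *ACVR1*, and *SMAD4* and *ID4* sit at or next to 0.

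The common SMAD, which the receptor SMADs of both branches bind, had almost no reads. *SMAD4*, on chromosome 18 (51028528 to 51085045), had 1 read in control replicate 2 and 0 reads in the other libraries. The genes on either side were expressed, *ELAC1* at 184.4 to 209.4 normalized counts in control and 185.7 to 205.7 in *SAMD1* KO, and *MEX3C* at 1508.7 to 1555.5 and 1606.8 to 1671.7. The other receptor SMADs were not called. *SMAD1* had a log2 fold change of 0.10 (limma adjusted p = 0.50) and *SMAD5* one of -0.31 (limma adjusted p = 0.280), with its lowest value, 2730 normalized counts, in clone 2. In that clone *SMAD5* differed from control by -0.75 on the log2 scale, and the median shift of its neighbouring genes was -0.58.

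Of 11 tested genes among the other BMP, activin and TGF-beta receptors and co-receptors, 1 was called higher and 0 were called lower, with a median log2 fold change of 0.09. *ACVR1C*, a type I receptor for nodal and activins, rose from 58.3 ± 6.03 to 115.2 ± 15.0 normalized counts (SD of 3; log2 fold change 0.97, limma adjusted p = 0.0130). *ACVR1*, the type I receptor expressed beside *BMPR1A*, had a log2 fold change of 0.29 (limma adjusted p = 0.0808). The co-receptor *ENG* held 177.3, 188.8 and 171.8 normalized counts in control and 150.3, 44.9 and 96.2 in clones 1 to 3, a log2 fold change of -1.04 that was not called (limma adjusted p = 0.128). Of the E proteins that ID proteins bind, *TCF3* had a log2 fold change of -0.01 and *TCF12* one of 0.24 (limma adjusted p = 0.0401), neither beyond the fold limit, and *TCF4* had under 3 normalized counts in every library.

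Among the 7 tested BMP ligands, *BMP2*, *BMP7* and *GDF7* were called higher and 0 were called lower, with a median log2 fold change of 0.87. *GDF7*, a BMP-type growth factor, rose from 101.6 ± 10.5 to 264.2 ± 7.67 normalized counts (SD of 3; log2 fold change 1.37, limma adjusted p = 0.00115). Of 8 tested secreted antagonists, 1 was called higher and 0 lower. This was *NOG*, which encodes the BMP trap noggin, at 77.8, 91.0 and 68.7 normalized counts in control and 151.3, 499.4 and 223.1 in clones 1 to 3 (log2 fold change 1.69, limma adjusted p = 0.0350).

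**Figure D3:**
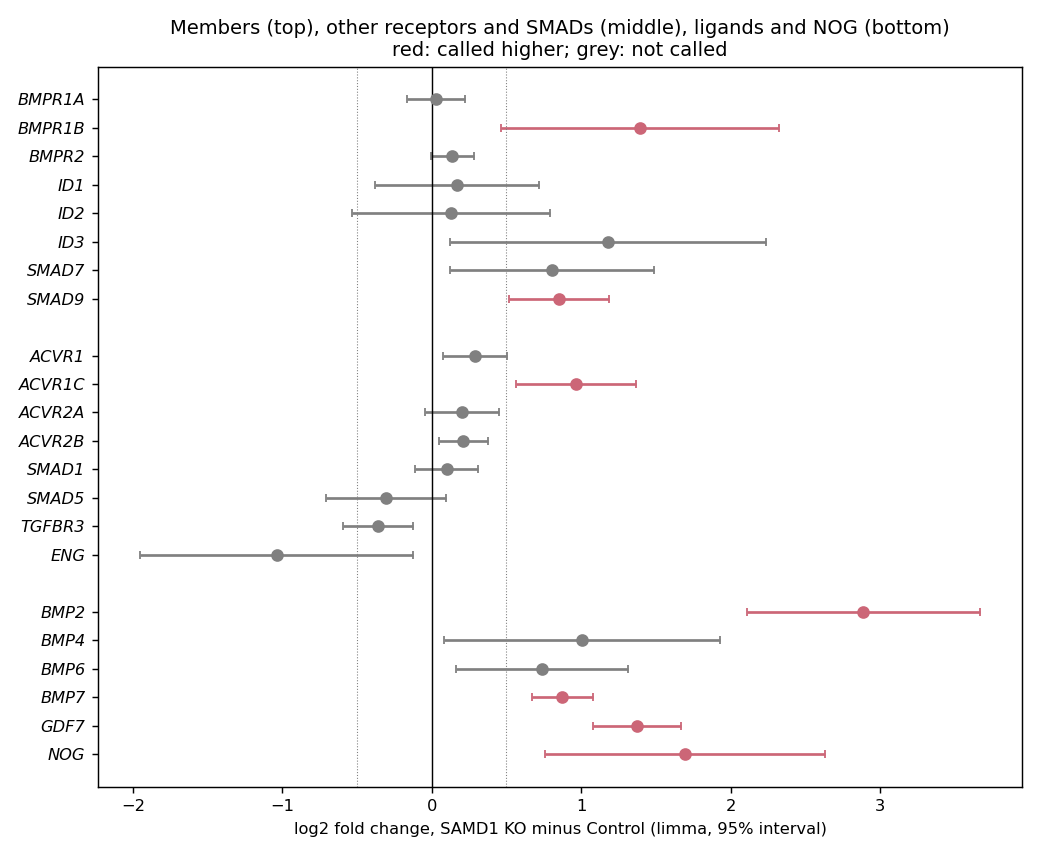
Log2 fold change of *SAMD1* KO minus control with the 95% interval of limma for the 8 tested members (top), other receptors and SMADs (middle) and ligands with *NOG* (bottom); dotted lines mark the fold limit of 0.5 and red marks genes called higher. The intervals of *ID1* and *ID2* span 0, and that of *SMAD9* lies wholly above 0.5.

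Of 25 tested SMAD regulators, 2 were called higher and 1 was called lower, with a median log2 fold change of -0.00057. *LDLRAD4*, which keeps receptor SMADs from activation, rose from 106.9 ± 13.7 to 254.0 ± 45.8 normalized counts (SD of 3; log2 fold change 1.23, limma adjusted p = 0.00499). *ZNF423*, a DNA-binding partner of SMADs at BMP targets, rose from 5.99 ± 2.44 to 42.4 ± 11.7 (log2 fold change 2.65, limma adjusted p = 0.00489). *NEDD4L*, a ubiquitin ligase for SMADs, fell from 3541 ± 33.5 to 2510 ± 298 (log2 fold change -0.50, limma adjusted p = 0.0124). Of 10 tested BMP target genes other than the members, 4 were called higher and 1 lower, with a median log2 fold change of 0.38. *HEY1*, a transcriptional repressor, rose from 45.7 ± 8.91 to 266.7 ± 79.0 normalized counts (SD of 3; log2 fold change 2.50, limma adjusted p = 0.00137). The osteogenic regulator *RUNX2* rose from 211.5 ± 32.0 to 584.1 ± 195.0 (log2 fold change 1.42, limma adjusted p = 0.00912). The homeobox genes *MSX2* and *MSX1* moved apart, with *MSX2* at a log2 fold change of 0.78 (limma adjusted p = 0.0433) and *MSX1* at -0.72 (limma adjusted p = 0.0113). *NOG* is the fourth of these genes called higher. Over all 72 tested pathway genes outside the members, 10 were called higher, 4 lower and 58 were not called. The shares to set beside these and the counts of each list are 5.77% of all tested genes called higher and 2.08% called lower.

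The clones differed from one another more than the controls did. The median SD on the log2 scale was 0.0586 over controls and 0.151 over clones, and it was larger in the clones for 82.8% of tested genes and for 5 of the 8 tested members. Clone 2 was the highest clone for 4 of the 9 members with reads (*BMPR1A*, *ID1*, *ID2* and *SMAD6*), clone 1 for 3 (*BMPR2*, *ID3* and *SMAD7*) and clone 3 for 2 (*BMPR1B* and *SMAD9*). Clone 3 was the lowest clone for *ID1*, *ID3*, *SMAD6* and *SMAD7*. *BMP4* and *BAMBI*, a decoy receptor gene that BMP can raise, were also lowest there. Other ligand genes and *NOG* went otherwise, with *BMP2*, *BMP6*, *BMP7* and *NOG* lowest in clone 1 and *GDF7* lowest in clone 2. *BMP4* held 142.4, 270.4 and 80.1 normalized counts in clones 1 to 3, against 72.0 ± 3.13 in control (SD, n = 3). All its clones were above all controls, and *BMP4* was not called (log2 fold change 1.01, limma adjusted p = 0.139). The paper, which used DESeq2, reports *BMP4* as significantly raised, along with *BMP2* and *BMP7*, so the limma result for *BMP4* differs from the paper's. *BAMBI* held 253.1, 297.2 and 159.2, against 156.9 ± 3.25 in control (SD, n = 3). The order clone 2, clone 1, clone 3 that *BMP4* and *BAMBI* share with *ID1* and *SMAD6* was found in 15.7% of all tested genes. The other order with clone 3 lowest, clone 1, clone 2, clone 3, was found in 17.3%.

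**Figure D4:**
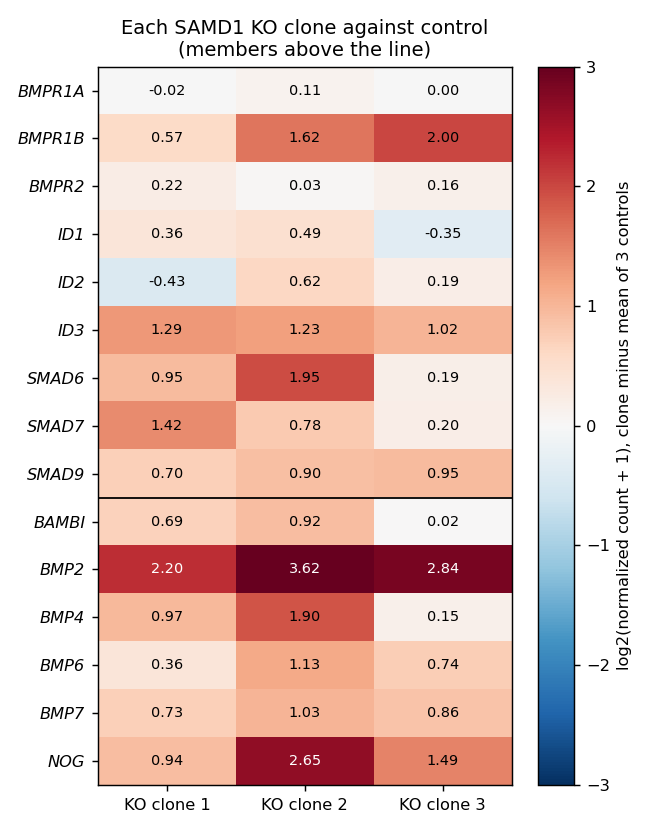
Difference of each *SAMD1* KO clone from the mean of the 3 control libraries on log2(normalized count + 1), for the 9 members with reads (above the line) and 6 other pathway genes. *SMAD9* is alike in the 3 clones (0.70, 0.90 and 0.95), while *ID1* runs from 0.49 in clone 2 to -0.35 in clone 3.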

How the data were processed

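RNA-seq libraries of PaTu8988t cells, 3 control and 3 *SAMD1* KO, were prepared by the authors with a stranded mRNA kit. Per the study's methods and the submitters' processing notes, reads were aligned with RNA-STAR to GenCode 43 (hg38), counted per gene with featureCounts and normalized with DESeq2. The deposited signal is 1 normalized count per gene and library, without pooling. Within a library, 100% of values were integer multiples of 1 step (tolerance 0.001 of a step), and reads given in the text are values divided by that step. The authors' table of their own comparison (mean, log2 fold change, error, statistic, p and adjusted p) was not used.

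Groups were taken from the sample titles. Genes with a mean of at least 10 normalized counts were fitted with limma 3.58.1 (lmFit, eBayes with trend; R 4.3.3) on log2(normalized count + 1), after a test on simulated data. Benjamini-Hochberg adjustment ran over the 12773 tested genes. The smallest p that an exact permutation test of 3 against 3 libraries can give is 0.1, so none was used. Python 3.11.15 with pandas 2.3.3 and numpy 2.4.6 was used for descriptions and matplotlib 3.10.9 for figures. Positions and exon lengths are those of GENCODE 44 on GRCh38, and 98.5% of tested genes had one. Promoters are from RefSeq on GRCh38.p14, for all 10 members. At 35589477 to 45172216 reads per library, counting noise limits the lowest members and the number of libraries limits the others.

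Members, lists and tests were chosen with earlier results of these data known. The text names all members, *SAMD1*, called genes of each list, some tested receptors, SMADs and E proteins by their level, and for each called member the 2 genes most like it across clones. *ELAC1*, *MEX3C*, *BMP4*, *BMP6*, *BAMBI*, *PMEPA1*, the other uncalled TGF-beta target genes and uncalled markers were named after their values were seen. Alternatives were a pseudocount of 0.1 or 10, no count minimum or 50, rescaling each library by its 75th percentile, a block for the replicate number, fits without 1 library, an adjusted p below 0.05 as the cut-off, and removing the median shift of 40 neighbouring genes.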

Additional observations from a re-analysis of the deposited data

How the results depend on the processing

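*SMAD9* kept its call under every alternative tried, and no member was called lower under any. Members called higher fell from 2 to 1 with an adjusted p below 0.05 and with a minimum mean of 50, where *BMPR1B* is not tested, and ran from 1 to 2 over the fits that each left out 1 library. The log2 fold change of *BMPR1B* stayed 1.40 under the adjusted p and was not called, and ran from 1.09 to 1.81 without 1 library. With the neighbour shift removed *BMPR1B* was at 1.44 (limma adjusted p = 0.0401), and with a replicate block at 1.40 (limma adjusted p = 0.0426). Without 1 library, *BMPR1A* ran from -0.0396 to 0.0696, *ID2* from -0.12 (without clone 2) to 0.41, *ID3* from 0.75 to 1.60 (0.67 with a pseudocount of 10) and *SMAD7* from 0.49 to 1.10. With a replicate block *SMAD7* was called at 0.80 (limma adjusted p = 0.0627), making 3 members. Deviations of same-numbered libraries correlated at 0.039, 0.134 and 0.032. Control replicates 1 and 2 deviated most like the clone of their own number, and control replicate 3 slightly more like clone 1 (0.036). These low correlations cannot settle whether the numbers mark pairs, and the main fit took none. The block gave 725 genes higher and 259 lower. Over all tested genes, 600 were called lower under the adjusted p against 266, and called genes ran from 568 to 862 higher and from 180 to 370 lower without 1 library. Pathway genes outside the members called lower ran from 2 to 7 without 1 library, and were 6 under the adjusted p against 4. The compared values were counts of called genes and log2 fold changes of single genes. In 187 of them a count stayed near its main value or a gene kept direction and call. A count of 1063 genes higher under the adjusted p, against 737, still passed as near. Of the rest, 8 counts moved further and 3 fold changes reversed, all of *BMPR1A* or *ID2*. In 3 comparisons *ID3* or *SMAD7* gained the call. In 6 comparisons *BMPR1B* lost it, that under the adjusted p included. The edgeR and DESeq2 alternatives were not run, since the step of clone 1, 0.989 normalized counts, lies too near 1 for the check made on recovered reads. *ID3*, *SMAD6* and *BMPR1B* had few reads, and *BMPR1B* also spread widely over the clones (SD 0.74 on the log2 scale).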

Other observations

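The TGF-beta branch uses other receptor SMADs, and genes that it commonly raises were counted beside the BMP targets. Of 10 tested TGF-beta target genes, 0 were called higher and 2 were called lower, with a median log2 fold change of -0.18. *CCN2*, a matricellular growth regulator, fell from 28054 ± 1131 to 16928 ± 2117 normalized counts (SD of 3; log2 fold change -0.74, limma adjusted p = 0.00416). *TAGLN*, an actin-binding protein gene, fell from 848.4 ± 21.1 to 424.9 ± 162.4 (log2 fold change -1.08, limma adjusted p = 0.0468), with clone 1 the lowest at 241.3. *PMEPA1*, a target that restrains receptor SMADs, held 387.6 normalized counts in clone 1, 64.8 in clone 2 and 85.4 in clone 3 against 58.3 to 93.9 in control, and *SMAD7* was also highest in clone 1.

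Likeness to the called members was measured as the root mean square difference of the 3 clone differences on the log2 scale, over 11453 genes with a mean of at least 50 normalized counts. *PDLIM3* (0.0203) and *TSPAN12* (0.0328) were closest to *SMAD9*, at 0.70, 0.87 and 0.93 and at 0.68, 0.88 and 0.91 in clones 1 to 3. *PLEKHG1* (0.139) and *ALDH1L2* (0.181) were closest to *BMPR1B*, at 0.67, 1.82 and 1.93 and at 0.73, 1.88 and 2.04. These are a description over 3 clones.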
